A study of Sus scrofa with 10 samples.

Results

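The genes described here encode the subunits of the mitochondrial respiratory chain and of ATP synthase, measured as RNA in pig liver during liver failure after hepatectomy. They were chosen by symbol alone: the NDUF, SDH, UQCR, COX4 to COX8 and ATP5 families and CYC1 among the nuclear genes, and the 13 protein genes of the mitochondrial genome. These were 77 of the 31905 genes in the deposited table, 64 nuclear and 13 mitochondrial, and no symbol occurred more than once. The nuclear genes comprised 29 of complex I, 3 of complex II, 6 of complex III, 14 of complex IV and 12 of ATP synthase (complex V). Of the mitochondrial genes, 7 belong to complex I, 1 to complex III, 3 to complex IV and 2 to complex V. NDUFA4 was counted under complex IV, where its protein sits, and COX7A2L (a factor that joins complexes III and IV) and ATP5IF1 (the inhibitor of ATP synthase) were kept although they are not core parts of an enzyme. All but ATP8 passed a filter of at least 1 FPKM in at least 2 libraries, which left 76 genes. ATP8, whose reading frame overlaps that of ATP6, was listed at 0 in all 10 libraries.

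The 10 libraries fell into 5 groups, all labelled WT. Control was normal liver on day 0 (n = 3), NoBAL was failing liver without a device on day 2 (n = 2), and EmptyBAL was failing liver on day 3 with a bioartificial liver that held no cells (n = 2). The hiHepD4 (day 4, n = 1) and hiHepD8 (day 8, n = 2) livers came from pigs treated with the device filled with human induced hepatocytes (hiHep), hepatocyte-like cells made from another human cell type. The study compared NoBAL with normal liver to define failure genes, asked which of them were reverted with the filled device, and used EmptyBAL to account for the passage of blood. The labels state neither breed nor age, and do not say that the libraries of a group are different animals. The p-values therefore reflect how far libraries of a group lie apart, and that distance may be technical. Each group was taken on its own day, so time and treatment cannot be told apart.

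Complexes I and II pass electrons from NADH and succinate to ubiquinone, complex III passes them to cytochrome c, and complex IV hands them to oxygen. Complexes I, III and IV pump protons, and ATP synthase uses the returning protons to make ATP. All subunits of complex II are nuclear, whereas the other complexes mix nuclear subunits with a few made inside the mitochondrion. The mitochondrial genes are copied from both strands of a small circular genome as long transcripts that are then cut, and ND6 is the protein gene that lies alone on its strand. Hepatocytes are rich in mitochondria, which feed the synthesis of glucose, urea and plasma proteins.

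Values are FPKM, which divide a gene's fragments by its length and by the fragments of the library, and changes are differences of log2(FPKM + 1) with limma's standard error (SE). A gene was called at a two-sided Benjamini-Hochberg adjusted p under 0.05 over the 12180 genes that passed the filter. The FPKM of a library summed to between 439925 and 829970, and the fragments sequenced are unknown, so no counting error can be given. Pearson correlation of log2 values between libraries of a group was 0.992 to 0.994 for Control and 0.992 for hiHepD8, but 0.956 for NoBAL and 0.893 for EmptyBAL. The respiratory chain genes differed between the NoBAL libraries by a median of 0.773 log2 units, with NoBAL replicate 1 higher, and by 0.775 between the EmptyBAL libraries. The same figure was 0.057 to 0.098 in Control and 0.054 in hiHepD8, so the first-named groups carry most of the error below. With the close Control libraries averaged into 1 and the hiHepD8 libraries likewise, limma called 0 respiratory chain genes in any of the 6 comparisons, where 0 to 11 had an unadjusted p under 0.05.

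The tissue itself differed between the groups. The labels give liver as the tissue and hepatocyte as the cell type with no isolation step, and all 8 hepatocyte markers were found. Their summed FPKM was 84300 to 86900 in Control livers, 14800 to 15800 with NoBAL, and lowest with EmptyBAL at 3660 (replicate 1) and 6880. hiHepD4 had 25100, and hiHepD8 had 21100 to 21200. Of 4 neutrophil markers 3 were found, with S100A8 at 0 in every Control library. Their sum was 0.327 to 1.19 in Control and 0.694 to 0.97 in hiHepD8, against 26.2 to 233 for NoBAL, 100 to 626 for EmptyBAL and 65.4 for hiHepD4. Markers of dividing cells (4 of 5 found) showed the same split, at 2.62 to 4.11 and 2.11 to 2.74 in Control and hiHepD8 against 194 to 272 for NoBAL, 115 to 116 for EmptyBAL and 97.3 for hiHepD4. Cholangiocyte markers (3 of 4 found) summed to 95.5 to 118 in EmptyBAL and to at most 28.3 in any other group. Sums of T and NK cell markers (5 of 5) were 39.1 to 66.2 in EmptyBAL and at most 18.8 elsewhere, and the difference lay mainly in NKG7 (53.4 and 25.9 FPKM, against 5.25 to 6.78 FPKM in Control), while CD3D was below Control. Macrophage markers (6 of 6) summed to 735 to 806 in Control, 160 to 381 in NoBAL and 503 to 513 in EmptyBAL, and the Control sum is mostly CD14 (680 to 752 FPKM, against 90.8 and 167 FPKM in EmptyBAL). The other 5 macrophage markers, such as CD68 (14.7 to 16.4 FPKM in Control, 63.9 and 77.5 FPKM in EmptyBAL) and CD163 (12.01 to 13.1 FPKM and 84.0 and 108 FPKM), were each above every Control library in EmptyBAL. Stellate cell and fibroblast markers (5 of 5) summed to 305 to 341 in Control and to 498 to 855 in the other replicated groups, where COL1A1 was above Control in every library and ACTA2 and PDGFRB were not. The part of these cell types in the results below was not tested. In whole tissue, fewer hepatocytes and less RNA per hepatocyte cannot be told apart.

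In normal liver the mitochondrial genes stood far above the nuclear ones per kilobase. Their mean Control levels ran from 1130 FPKM for ND1 to 30100 FPKM for COX3, with ATP6 at 26900 FPKM and CYTB, the only mitochondrial subunit of complex III, at 7280 FPKM. Among nuclear genes, complex I ran from 7.12 FPKM (NDUFB6, a membrane subunit) to 187 FPKM (NDUFB9), with a median of 47.1. Complex III ran from 14.1 FPKM (UQCRFS1, the Rieske iron-sulphur protein) to 169 FPKM (CYC1, cytochrome c1). The liver form of subunit 4 of complex IV, COX4I1, was the most abundant nuclear member at 957 FPKM, and COX6B2, a testis form, the least at 0.342 FPKM. ATP synthase ran from 10.7 FPKM (ATP5PF) to 225 FPKM (ATP5MK), with a median of 89.6.

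**Figure D1:**
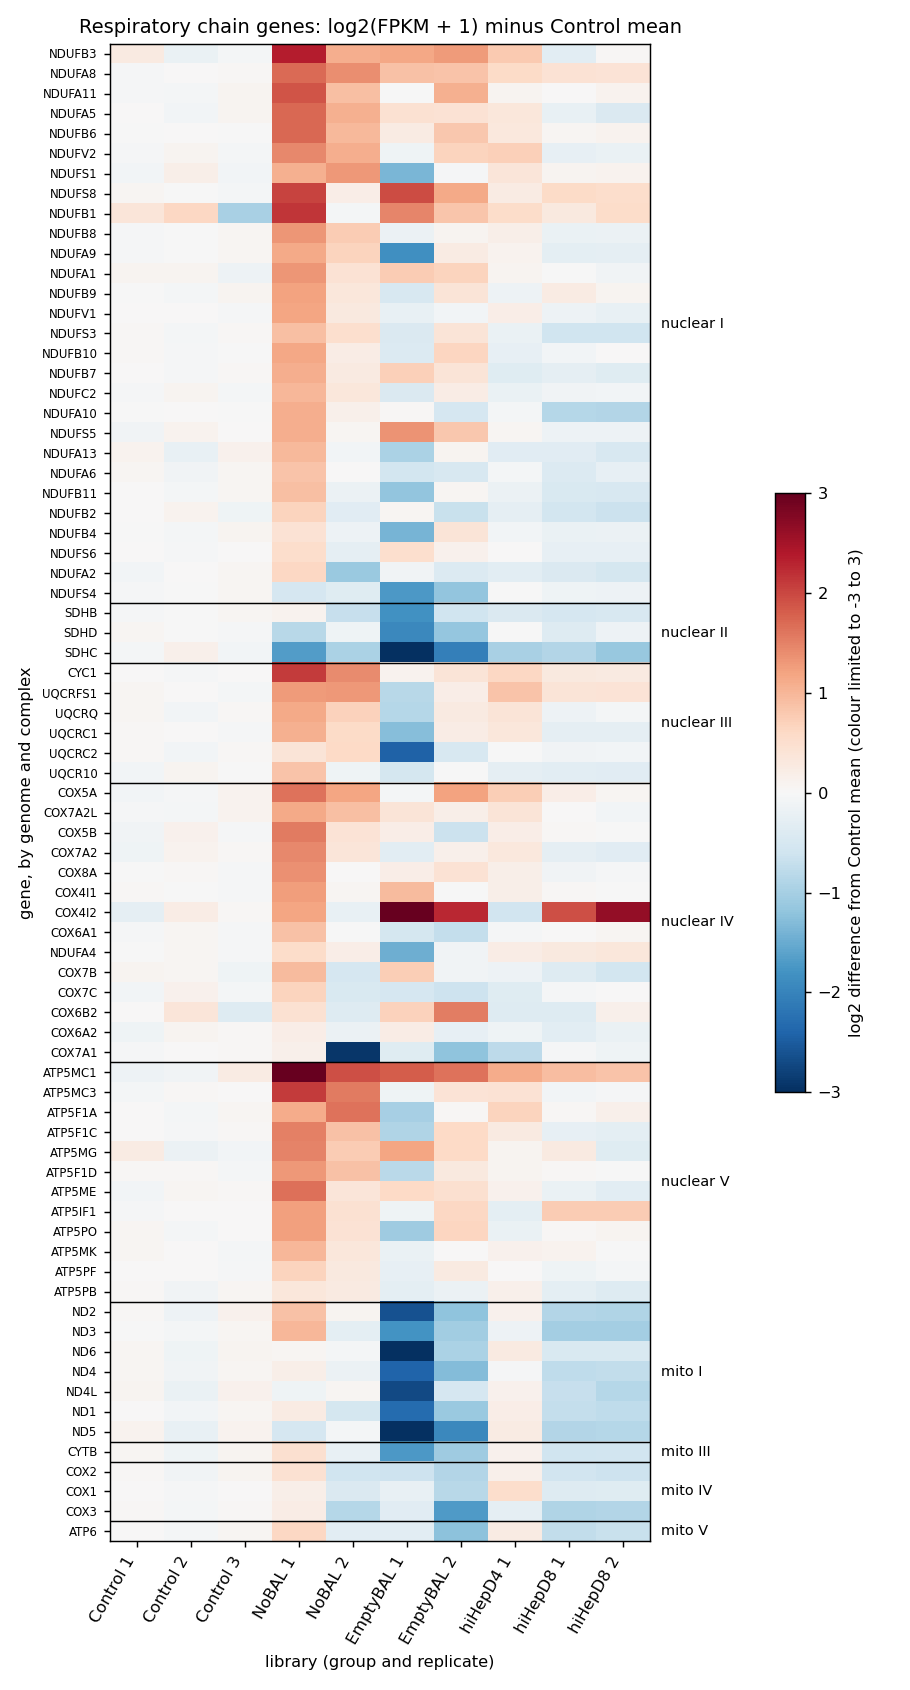
Respiratory chain genes (75 of the 76 that passed the filter, in rows, by genome and complex) in each library (columns), as log2(FPKM + 1) minus its Control mean, with red above and blue below and colour limited to 3 either way. The NoBAL columns are mostly red for nuclear genes (median 1.129 and 0.335), while the EmptyBAL columns are blue for complex II and for the mitochondrial genes.

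NoBAL was set against Control to ask what failing liver does to these genes. Nuclear subunit genes rose: 25 of 64 were called higher and 1 lower, with a median log2 change of 0.716 over all 64 (-1.385 to 2.964), against 25.2% of all genes called higher, 24.2% called lower and a median of 0.039. Of the mitochondrial genes 0 of 12 were called by limma and 0 had an unadjusted p under 0.05, with a median of -0.019 and NoBAL libraries on opposite sides of Control (0.234 and -0.256). Genes called higher numbered 11 of 29 in complex I (median 0.738), 3 of 6 in complex III (0.861) and 8 of 12 in ATP synthase (1.046), each a larger share than that of all genes. In complex IV they numbered 3 of 14 (0.454), a smaller share than that of all genes. Complex II alone had a negative median, -0.484. The size rested on NoBAL replicate 1, where the nuclear genes had a median of 1.129 above Control, against 0.335 in NoBAL replicate 2. Without NoBAL replicate 1, 13 nuclear genes were called higher and 2 lower. Without NoBAL replicate 2, 39 were higher and 0 lower. Without Control replicate 1, 2 or 3, 16, 16 and 15 were higher and 0 lower. Of the 26 calls, 12 were kept without each library in turn, among them those of NDUFA5, NDUFA8, NDUFB3, NDUFB6, NDUFB8, NDUFV2, CYC1, UQCRFS1, COX7A2L, ATP5MC1 and ATP5MC3. Rescaling the libraries to the same FPKM sum, which moved the median of all genes to 0.302, raised the nuclear calls to 43, all higher, against 30% of all genes called higher. Of the 26 calls, 23 were kept under each of 3 scalings.

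Within complex I the catalytic core and the accessory subunits were both called. Of the 6 nuclear core genes, which carry the flavin and iron-sulphur centres, 4 rose (among them NDUFS1, NDUFV1 and NDUFV2), with a median of 1.146 over the 6. Of the 23 accessory genes 7 rose and 0 fell (median 0.676), a share of rises close to the 25.2% of all genes. NDUFA8, an accessory subunit of the intermembrane face, was at 35.95, 37.1 and 37.9 FPKM in Control and at 122 and 99.3 FPKM in NoBAL. It was near 3 times its Control level in each NoBAL library, a log2 change of 1.55 ± 0.16 SE (adjusted p = 0.000204). It lies on chromosome 1 at 262243225 to 262258186 of Sscrofa11.1. NDUFB3, a small membrane subunit, was at 25.7, 18.6 and 20.3 FPKM in Control and at 114 and 46.8 FPKM in NoBAL. Both NoBAL libraries exceeded every Control library, and the change was 1.73 ± 0.35 SE (adjusted p = 0.0049). NDUFS4, an accessory subunit needed to finish assembly, went the other way without being called, at 160, 163 and 171 FPKM in Control and 116 and 127 FPKM in NoBAL (-0.44 ± 0.20 SE, adjusted p = 0.113).

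Among the nuclear genes of complex III, both electron-carrying subunits were called and the large core proteins were not. CYC1 was at 172, 165 and 171 FPKM in Control and at 730 and 454 FPKM in NoBAL. Both NoBAL libraries lay more than 2-fold above Control, and the change was 1.76 ± 0.24 SE (adjusted p = 0.000807). UQCRFS1 was at 14.8, 14.2 and 13.4 FPKM in Control and at 35.6 and 36.02 FPKM in NoBAL (1.28 ± 0.27 SE, adjusted p = 0.00614). UQCRC1 and UQCRC2, the core proteins, had changes of 0.81 ± 0.40 and 0.49 ± 0.48 SE (adjusted p = 0.127 and 0.42). The small subunit gene UQCRQ was called (0.91 ± 0.32 SE, adjusted p = 0.049) but not without any library in turn (adjusted p = 0.0627 to 0.21).

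Complex IV was divided. COX5A, a matrix-side subunit, was at 84.3, 86.2 and 96.1 FPKM in Control and at 277 and 202 FPKM in NoBAL (1.41 ± 0.35 SE, adjusted p = 0.0128, and 0.0753 without NoBAL replicate 1). COX7A2L was at 57.9, 57.4 and 64.4 FPKM in Control and at 134 and 113 FPKM in NoBAL (1.03 ± 0.17 SE, adjusted p = 0.00196). COX7A2, the form of subunit 7A found in most tissues, was called at 0.91 ± 0.32 SE (adjusted p = 0.0488), with an adjusted p of up to 0.217 when a library was left out. The remaining 11 nuclear genes of the complex were not called. For COX4I1, COX8A, COX7B and COX7C this went with NoBAL libraries that disagreed: COX4I1 was at 2284 FPKM in NoBAL replicate 1 and at 1001 FPKM in replicate 2, against 939 to 981 FPKM in Control.

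ATP synthase had the highest share of called nuclear genes of the 5 complexes, 8 of 12, and the largest changes. ATP5MC1, which encodes subunit c of the rotating ring in the membrane, was at 54.3, 56.0 and 72.3 FPKM in Control and at 982 and 232 FPKM in NoBAL. The NoBAL libraries differed 4-fold from each other, and both were far above Control, with a change of 2.96 ± 0.52 SE (adjusted p = 0.00247). The gene is listed under its older symbol ATP5G1 in the annotation, on chromosome 12 at 25110540 to 25113481. ATP5MC3 encodes the same mature protein. It was at 20.9, 22.3 and 22.0 FPKM in Control and at 96.1 and 66.2 FPKM in NoBAL (1.83 ± 0.22 SE, adjusted p = 0.000435). The 3 measured genes of the F1 part, ATP5F1A, ATP5F1C and ATP5F1D, rose. ATP5F1B, the catalytic beta subunit, is not among the 77 genes. ATP5F1A, the alpha subunit, was at 62.4, 59.3 and 64.9 FPKM in Control and 136 and 194 FPKM in NoBAL (1.38 ± 0.31 SE, adjusted p = 0.0079). Its call was not kept without NoBAL replicate 2, and that of ATP5F1D was lost without any of the Control libraries. ATP5F1C was called at 1.20 ± 0.41 SE (adjusted p = 0.0431), but not once any library was left out (0.058 to 0.211). All 3 small membrane genes, ATP5ME, ATP5MG and ATP5MK, rose (median 1.009), and each call was lost without NoBAL replicate 1. The calls of ATP5ME and ATP5MK were also lost when any 1 Control library was left out, and that of ATP5MG without Control replicate 2 or 3. The 3 genes of the peripheral stalk, ATP5PB, ATP5PF and ATP5PO, were not called (median 0.48). The inhibitor gene ATP5IF1 sat at the threshold without passing it (0.84 ± 0.30 SE, adjusted p = 0.05).

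**Figure D2:**
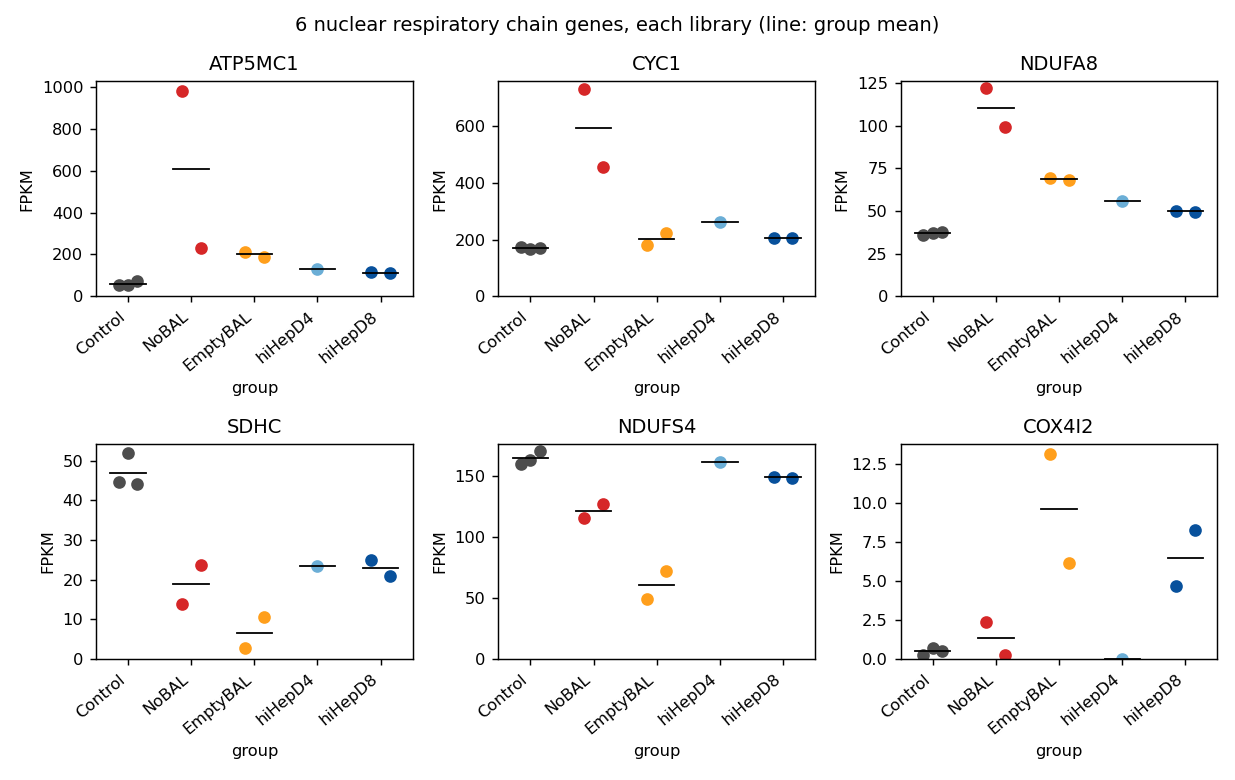
FPKM of 6 nuclear genes in each library, by group, with a line at the group mean and a separate linear axis from 0 in each panel. ATP5MC1, CYC1 and NDUFA8 are highest in NoBAL, SDHC and NDUFS4 are lowest in EmptyBAL, and COX4I2 is highest in EmptyBAL (13.2 and 6.16 FPKM) and hiHepD8 (4.72 and 8.28 FPKM).

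Complex II, which also works in the tricarboxylic acid cycle, did not share the rise. SDHC, one of its membrane anchors, was at 44.6, 51.8 and 44.1 FPKM in Control and at 13.98 and 23.7 FPKM in NoBAL. Both NoBAL libraries were at about 50% of Control or less, and the change of -1.31 ± 0.44 SE was called (adjusted p = 0.0384). That call was lost without any library (adjusted p = 0.053 to 0.211) and when libraries were rescaled to the same FPKM sum (-0.96, adjusted p = 0.178). SDHD, the other anchor, was at 172, 164 and 161 FPKM in Control and at 92.5 and 151 FPKM in NoBAL (-0.48 ± 0.29 SE, adjusted p = 0.203). SDHB, the iron-sulphur subunit, was at 224, 228 and 237 FPKM in Control and straddled them in NoBAL at 247 and 141 FPKM (-0.30 ± 0.38 SE, adjusted p = 0.536). SDHA, the flavoprotein, is not among the 77 because the deposited table gives it no symbol. Matched by identifier, it was at 70.3, 78.6 and 69.8 FPKM in Control and at 73.7 and 53.5 FPKM in NoBAL (-0.21 ± 0.23 SE, adjusted p = 0.478). NDUFB5, UQCR11 and NDUFA7, also without a symbol there, had changes of 0.80, 1.09 and 0.85 in NoBAL against Control (adjusted p = 0.22, 0.0191 and 0.0488). As a share of the summed FPKM of all nuclear members, which no scaling of a library can alter, the 3 complex II genes held 6.61% to 6.66% in Control and 2.28% and 3.69% in NoBAL. SDHC lies on chromosome 4 at 89135410 to 89169164, SDHD on chromosome 9 at 39790654 to 39803602 and SDHB on chromosome 6 at 75648362 to 75678111.

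**Figure D3:**
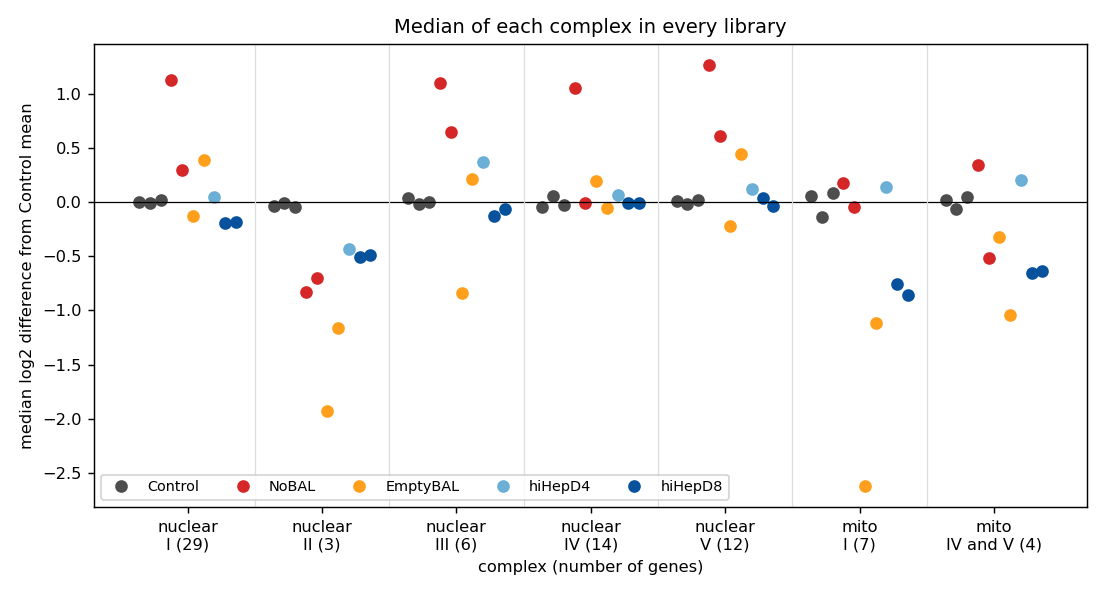
Median log2 difference from the Control mean (vertical axis) of each complex in each library, with the number of genes in brackets and 1 point per library, coloured by group. Complex II is below Control in all 7 other libraries (-0.431 to -1.925), and both NoBAL points are above Control for nuclear complexes I, III and V.

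The mitochondrial genes of NoBAL scattered around Control in a way that followed the library. As a share of the Control mean, the 12 genes ran from 70.2% (ND5) to 199% (ND3) in NoBAL replicate 1 and from 55.3% (COX3) to 105% (ND2) in NoBAL replicate 2. In replicate 1, 10 of 12 were above the Control mean, and in replicate 2, 2 of 12. The sign of their median change turned with the scaling, from -0.019 to 0.34 at equal FPKM sums and 0.418 at equal sums of the other genes, and to 0.234 without NoBAL replicate 2.

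EmptyBAL was set against Control and against NoBAL to see these genes in liver failure with blood passed through a device without cells. The NADH dehydrogenase genes of the mitochondrial genome fell, all 7 of 7 (median -1.847), and so did CYTB, while COX1, COX2, COX3 and ATP6 were lower without being called. Together 8 of 12 mitochondrial genes were called lower and 0 higher than in Control (median -1.514), where 29.3% of all genes were called lower, 24.4% higher and the median was -0.025. Nuclear genes went both ways, 9 called higher and 5 lower of 64 (median -0.07). Whether their median is above or below Control depends on the scaling: it was 0.166 at equal upper quartiles and 0.734 at equal FPKM sums, where the median of all genes was 0.152 and 0.605 and the nuclear calls were 13 higher and 3 lower, and 37 higher and 1 lower. Of all genes, 31.8% were called higher and 23.7% lower at equal upper quartiles, and 47% and 13.3% at equal FPKM sums. The mitochondrial calls were 7 and 3 under these scalings, all lower, and ND2, ND4 and ND5 were called lower under each of 3 scalings. Without Control replicate 1, 2 or 3 the nuclear calls numbered 6, 7 and 6 and the mitochondrial calls 5. Without EmptyBAL replicate 2 more nuclear genes were called, mostly lower, and a larger share of all genes was called too.

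ND5, the largest of the mitochondrial complex I genes, spans 12935 to 14755 of the mitochondrial genome. The Control libraries held 3372, 2706 and 3381 FPKM and the NoBAL libraries 2213 and 3033 FPKM, against 291 and 823 FPKM in EmptyBAL. Both EmptyBAL libraries were below all others, and the change from Control was -2.68 ± 0.44 SE (adjusted p = 0.0016). ND2 was at 2435, 2137 and 2600 FPKM in Control and at 386 and 1035 FPKM in EmptyBAL (-1.91 ± 0.45 SE, adjusted p = 0.00834). ND4 was at 8113, 7184 and 8091 FPKM in Control and at 1471 and 3179 FPKM in EmptyBAL (-1.85 ± 0.39 SE, adjusted p = 0.00509). Each of these EmptyBAL values is under 50% of any Control value. The other called changes were -1.71 for ND1, -1.42 for ND3, -1.61 for ND4L, -2.33 for ND6 and -1.39 for CYTB, with adjusted p = 0.00742 to 0.0461. The calls of ND3, ND4L and ND6 were lost without any of the Control libraries, and those of ND3 and ND4L also without EmptyBAL replicate 1 (adjusted p up to 0.124, 0.154 and 0.0635). ND6 overlaps the end of ND5 on the opposite strand, and no source used here says whether the libraries kept strand. Reads of ND6 and of its antisense partner cannot be told apart without it.

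The EmptyBAL libraries differed in which mitochondrial genes were low. In replicate 1 the 7 ND genes were at 7.6% (ND6) to 28.9% (ND3) of the Control mean and CYTB at 30.4%, whereas COX1, COX2, COX3 and ATP6, which lie next to each other on the genome, were at 85.7%, 65.1%, 79.6% and 80.2%. In replicate 2 the ND genes were at 26.1% (ND5) to 69.6% (ND4L), CYTB at 47.5%, and the other 4 genes at 30.6% (COX3) to 56% (COX1). The ND genes therefore held 8.99% of the summed mitochondrial FPKM in EmptyBAL replicate 1 and 30.9% in replicate 2, against 27.8% to 29% in Control and 26.7% to 34.2% in all other libraries. This gap between the ND and the COX and ATP6 genes was thus seen in 1 library and not in its replicate, which were the least alike of any pair in a group. EmptyBAL replicate 1 also had the lower level of HNF4A, a transcription factor of hepatocytes, at 3.15 FPKM against 46.5 FPKM in replicate 2 and 105 to 112 FPKM in Control, and the higher S100A8 level, a neutrophil gene, at 175 against 27.6 FPKM. The part of either in the low ND values was not tested.

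**Figure D4:**
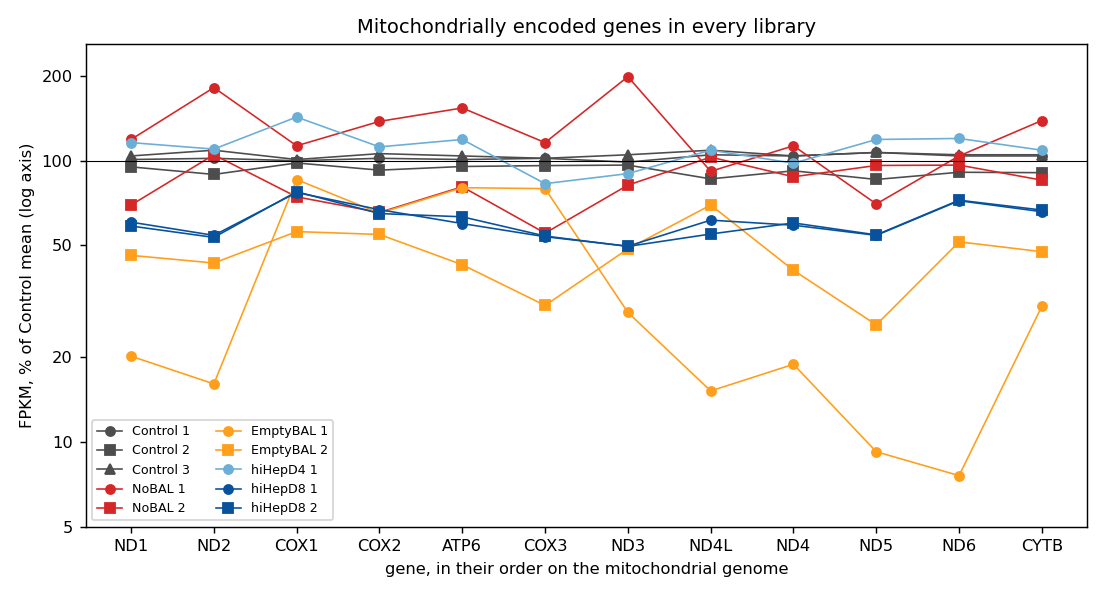
FPKM of the 12 measured mitochondrial genes as a percentage of the Control mean (log axis), in their order on the genome, with 1 line per library. EmptyBAL replicate 1 drops to 7.6% at ND6 but stays at 65.1% to 85.7% from COX1 to COX3, and the hiHepD8 libraries run together at 49.6% to 77.6%.

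The nuclear genes called lower in EmptyBAL than in Control were those of complex II, UQCRC2 and NDUFS4. SDHC was at 2.78 and 10.5 FPKM in EmptyBAL, with a change of -2.85 ± 0.44 SE (adjusted p = 0.00118), a call kept under each scaling and without each library. SDHD was at 42.9 and 73.2 FPKM (-1.55 ± 0.29 SE, adjusted p = 0.00318). SDHB was at 63.9 and 150 FPKM (-1.22 ± 0.38 SE, adjusted p = 0.027, and up to 0.119 when a Control library or EmptyBAL replicate 1 was left out). All 3 lay below every Control library, and SDHA did too at 20.6 and 32.0 FPKM (-1.47 ± 0.23 SE, adjusted p = 0.00139). The SDHD call was lost at equal FPKM sums and the SDHB call under all 3 scalings. The complex II median relative to that of all genes was still -1.336 at equal FPKM sums and -1.521 as deposited. NDUFS4 was at 49.3 and 72.4 FPKM in EmptyBAL against 160 to 171 FPKM in Control (-1.45 ± 0.20 SE, adjusted p = 0.000818, and 0.0837 at equal FPKM sums). UQCRC2 was at 7.37 and 31.7 FPKM against 41.9 to 45.6 FPKM (-1.45 ± 0.48 SE, adjusted p = 0.0347), and its call was lost without any Control library (adjusted p up to 0.0827) and under all 3 scalings.

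The nuclear genes called higher in EmptyBAL than in Control were spread over complexes I, IV and V. NDUFA8 was at 69.3 and 68.001 FPKM, between the Control and NoBAL libraries (0.88 ± 0.16 SE, adjusted p = 0.00274), and ATP5MC1 at 213 and 189 FPKM (1.72 ± 0.52 SE, adjusted p = 0.0248, and up to 0.0882 with a library left out). NDUFS8, a core iron-sulphur subunit, was at 325 and 183 FPKM against 80.2 to 86.8 FPKM in Control (1.54 ± 0.49 SE, adjusted p = 0.0301). NDUFB3, NDUFS5, NDUFA1 and ATP5MG were called at changes of 0.72 to 1.22. The ninth, COX6B2, reached 1 FPKM in the EmptyBAL libraries alone (1.12 and 2.79 FPKM, at most 0.801 elsewhere) and so passed the filter through the group where it is high, which leaves its call without weight. Of these 9 calls only those of NDUFA8 and COX4I2, described with the isoforms, were kept without each library. The COX4I2 call carries little weight, since no Control library reached 1 FPKM.

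Against NoBAL, EmptyBAL was lower in 22 nuclear genes and higher in 1 (median -0.829), and lower in 7 mitochondrial genes (median -1.578), where 21.4% of all genes were called lower, 12.6% higher and the median was -0.144. In a fit of these 2 groups alone limma called 0 genes of any kind, members included, of which 12 had an unadjusted p under 0.05, and with the replicate number as a block 0 members were called (24 with an unadjusted p under 0.05). The widest falls among nuclear genes of at least 10 FPKM were those of UQCRC2 (-1.95 ± 0.53 SE), NDUFS1 (-1.88 ± 0.38) and ATP5F1A (-1.85 ± 0.34), with adjusted p = 0.0267, 0.0105 and 0.00816. The UQCRC2 call was lost under all 3 scalings and without either NoBAL library (adjusted p up to 0.101). The nuclear calls depended on the scaling, with 4 higher and 2 lower at equal FPKM sums and 1 higher and 6 lower at equal upper quartiles, though the nuclear medians of all 5 complexes stayed below that of all genes under each. Of all genes, 21.3% were called higher and 3.82% lower at equal FPKM sums, and 18.4% and 10.5% at equal upper quartiles. CYC1 and ATP5MC3 were called lower under every scaling tried and without each library. Without EmptyBAL replicate 2 more nuclear genes were called lower, and without EmptyBAL replicate 1 fewer nuclear and mitochondrial genes were. The share of all genes called lower moved the same way.

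hiHepD8 was set against NoBAL to ask what stood differently in liver after the cell-filled device. The genes that were high in NoBAL were lower here: 28 of 64 nuclear genes were called lower and 1 higher (median -0.799), against 24.8% of all genes called lower, 22.5% called higher and a median of -0.032. By complex, the falls numbered 14 of 29 in complex I, 0 of 3 in complex II, 3 of 6 in complex III, 3 of 14 in complex IV and 8 of 12 in ATP synthase. All 12 mitochondrial genes were lower too, with 0 called by limma, 2 at an unadjusted p under 0.05 and a median of -0.664. This comparison shares the NoBAL libraries with the one against Control, so the falls are not independent of the rises described above. Without hiHepD8 replicate 1 or 2 the nuclear calls were 11 and 9 lower, without NoBAL replicate 1 16 lower and 3 higher, and without NoBAL replicate 2 41 lower with 5 mitochondrial genes. Those of NDUFA5, NDUFA8, NDUFB3, NDUFB6, NDUFB8, NDUFV2, CYC1, COX7A2L and ATP5MC3 were kept without each library. At equal upper quartiles 17 were lower and 1 higher, against 18.8% of all genes lower and 28.7% higher.

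The genes of the ATP synthase ring showed the widest falls from NoBAL among the members described here. ATP5MC3 was at 20.5 and 21.0 FPKM in hiHepD8, inside or at the edge of its Control range of 20.9 to 22.3 FPKM, and at 96.1 and 66.2 FPKM in NoBAL, a difference of -1.89 ± 0.24 SE (adjusted p = 0.000703). ATP5MC1 was at 116 and 109 FPKM in hiHepD8, lower than in NoBAL (-2.07 ± 0.57 SE, adjusted p = 0.0191, and 0.0876 at most without a hiHepD8 library) and above the 54.3 to 72.3 FPKM of Control (0.89 ± 0.52 SE, adjusted p = 0.23). NDUFA5, an accessory subunit of the peripheral arm, was at 61.7 and 52.5 FPKM in hiHepD8, 238 and 151 FPKM in NoBAL and 67.5 to 76.1 FPKM in Control (-1.72 ± 0.25 SE against NoBAL, adjusted p = 0.00111). CYC1 was at 206 and 204 FPKM (-1.48 ± 0.27 SE against NoBAL, adjusted p = 0.00308). All 4 genes were below both NoBAL libraries in hiHepD8, and ATP5MC1 and CYC1 were above every Control library. NDUFA10, another accessory subunit, was at 87.3 and 85.7 FPKM in hiHepD8 against 158 to 159 FPKM in Control and 340 and 177 FPKM in NoBAL, with a difference from NoBAL of -1.49 ± 0.33 SE (adjusted p = 0.00744, and 0.0505 without hiHepD8 replicate 2). Its difference from Control was -0.86 ± 0.30 SE (adjusted p = 0.0605).

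Against Control, hiHepD8 had 1 nuclear gene called higher, COX4I2, and 0 lower (median -0.09), where 15.1% of all genes were called higher, 17.1% lower and the median was -0.017. COX4I2 was below 1 FPKM in every Control library and passed the filter through other groups, so that call carries little weight. All 12 mitochondrial genes were below Control (median -0.746), at 49.6% to 77.6% of the Control mean in both libraries, with 0 called by limma and 0 at an unadjusted p under 0.05. That outcome depends on the spread shared with the NoBAL and EmptyBAL libraries. In a fit of Control and hiHepD8 alone, whose libraries lie close together, all 12 mitochondrial genes were called lower, and 10 nuclear genes were higher and 27 lower. That fit called 33.6% of all genes higher and 38.1% lower. The sign of the nuclear median turned positive at equal FPKM sums (0.466, with all genes at 0.431), where 8 nuclear genes were called higher, and 10 of the 12 mitochondrial genes were still below Control. There 30% of all genes were called higher, a larger share than that of the nuclear members. SDHC was at 24.9 and 20.8 FPKM in hiHepD8, under every Control library and above both EmptyBAL libraries (-1.004 ± 0.44 SE against Control, adjusted p = 0.119). The complex II genes held 4.85% and 5.22% of the nuclear FPKM, between the shares of NoBAL and Control. ATP5IF1 was at 379 FPKM in both libraries against 220 to 227 FPKM in Control (0.75 ± 0.30 SE, adjusted p = 0.0966).

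Against EmptyBAL, hiHepD8 was higher in 3 nuclear genes and lower in 5 (median -0.108), and higher in 1 mitochondrial gene, ND5 (median 0.821 over the 12, all positive), where 22.6% of all genes were called higher, 17.6% lower and the median was 0.049. NDUFS4 was at 149 FPKM in both hiHepD8 libraries, 1.30 ± 0.22 SE above EmptyBAL (adjusted p = 0.00336), and this call was kept without each library and under each scaling. SDHC (1.85 ± 0.48 SE, adjusted p = 0.0182), SDHD (1.28 ± 0.32 SE, adjusted p = 0.0158) and ND5 (1.81 ± 0.48 SE, adjusted p = 0.0199) were higher too, calls lost without either hiHepD8 library (adjusted p up to 0.0994, 0.105 and 0.0977). SDHA had a difference of 0.99 ± 0.25 SE (adjusted p = 0.0174). NDUFB3 (-1.36), NDUFS5 (-1.23), NDUFB7 (-0.87) and NDUFA5 (-0.77) were lower, and none of these 4 calls was kept without each library. The fifth call is that of COX6B2, which passed the filter through EmptyBAL alone and carries no weight here either. At equal FPKM sums, 14.3% of all genes were called higher and 22.7% lower in this comparison. Fewer members were called without either hiHepD8 library and more, nuclear and mitochondrial, without EmptyBAL replicate 2. The share of all genes called moved the same way. At equal FPKM sums 1 nuclear gene was higher and 13 lower.

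The single hiHepD4 library has no replicate and was not tested. Its nuclear genes had a median of 0.085 log2 units above the Control mean and its mitochondrial genes 0.151, with COX1 at 143% and COX3 at 82.9% of Control. CYC1 was at 261 FPKM, UQCRFS1 at 26.2 FPKM and ATP5MC1 at 131 FPKM, each above all Control and hiHepD8 libraries. SDHC was at 23.4 FPKM, below every Control library, while SDHD and NDUFS4 were at 165 and 162 FPKM, within their Control ranges.

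The ratio of mitochondrial to nuclear respiratory chain FPKM is formed within a library and so does not move with scaling. Control livers had ratios of 19.4, 18.0 and 19.8, and hiHepD4 had 18.9. The ratio was 10.8 and 11.2 for NoBAL, 10.6 and 7.41 for EmptyBAL, and 11.9 and 12.2 for hiHepD8. NoBAL, EmptyBAL and hiHepD8 all lay below every Control library and hiHepD4 lay among them. The parts of the ratio moved differently. In NoBAL the nuclear sum was higher, at 15530 and 8542 FPKM against 6659 to 6675 FPKM in Control, with the mitochondrial sum at 168440 and 96051 FPKM against 119708 to 131931 FPKM. In hiHepD8 the nuclear sum, 6462 and 6376 FPKM, was near Control and the mitochondrial sum was lower, at 77181 and 77821 FPKM. EmptyBAL had nuclear sums of 7058 and 7578 FPKM and mitochondrial sums of 74511 and 56147 FPKM. These sums, unlike the ratio, do move with scaling.

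**Figure D5:**
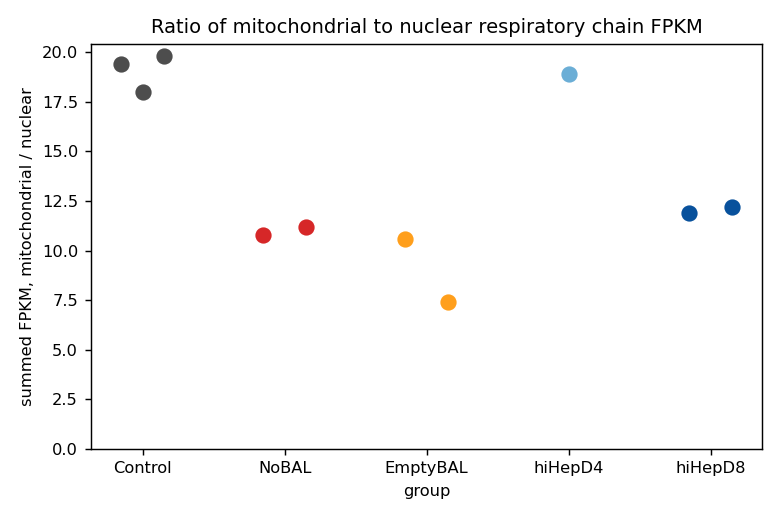
Summed FPKM of the mitochondrial genes divided by that of the nuclear respiratory chain genes (vertical axis from 0) in each library, by group. Control (18.0 to 19.8) and hiHepD4 (18.9) sit together, and the 6 libraries of NoBAL, EmptyBAL and hiHepD8 lie between 7.41 and 12.2.

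Several subunits of complex IV and of ATP synthase have alternative genes used in different tissues. COX4I2, a form of subunit 4 best known from lung, was at 0.234, 0.739 and 0.535 FPKM in Control, was listed at 0 in hiHepD4, and stood at 2.38 and 0.274 FPKM in NoBAL. It reached 13.2 and 6.16 FPKM in EmptyBAL and 4.72 and 8.28 FPKM in hiHepD8. Of the other libraries only NoBAL replicate 1 reached 1 FPKM. COX4I2 thus passed the filter mainly through the groups where it is high, and its calls carry little weight. EmptyBAL and hiHepD8 lay above all other libraries, with changes from Control of 2.76 ± 0.46 SE (adjusted p = 0.00175) and 2.29 ± 0.46 SE (adjusted p = 0.00734, and 0.0747 without hiHepD8 replicate 2). It was also called higher in both than in NoBAL (2.28 ± 0.50 and 1.81 ± 0.50 SE, adjusted p = 0.014 and 0.0199), but not without NoBAL replicate 2 (adjusted p = 0.0556 and 0.105), and not without EmptyBAL replicate 1 (0.0556) or hiHepD8 replicate 2 (0.121), respectively. Even so COX4I2 made up at most 0.86% of the summed COX4 FPKM in any library, and endothelial marker sums (5 of 6 markers found) were 102 to 103 in hiHepD8, 48.6 to 144 in EmptyBAL, 67.6 to 109 in NoBAL and 44.1 to 46.1 in Control. COX7A1, the form typical of heart and skeletal muscle, was at 34.3, 35.6 and 35.9 FPKM in Control and at 34.5 and 32.0 FPKM in hiHepD8. NoBAL had 39.3 and 3.78 FPKM, EmptyBAL 27.2 and 14.6 FPKM, and hiHepD4 20.02 FPKM. It was the member on which the NoBAL libraries disagreed most, and it was called in 0 of the 6 comparisons. COX6A2, the muscle form of subunit 6A, held 12.5% to 14.1% of the COX6A FPKM in Control and 21.1% and 17.7% in EmptyBAL. COX6A2 itself averaged 8.15 FPKM in Control and 8.22 FPKM in EmptyBAL, while COX6A1 averaged 52.4 and 33.8 FPKM. Muscle markers (3 of 5 found) summed to at most 0.782 FPKM in any library. ATP5MC1 made up 71.6% to 76.7% of the ATP5MC1 and ATP5MC3 sum in Control. The share was 91.1% and 77.8% for NoBAL, 91.6% and 86.7% for EmptyBAL, 81.5% for hiHepD4 and 85.0% and 83.9% for hiHepD8, so its share lay above Control in every other group. Many subunit genes have processed pseudogenes, and reads shared with such copies may have been assigned to either.

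Genes that build or feed the chain were read from lists chosen for this purpose. In NoBAL against Control, where 25.2% of all genes were called higher and 24.2% lower, 10 of 16 measured genes of the complex I assembly list rose and 3 fell (median 0.971), and 8 of 19 complex IV assembly factors rose with 0 falling (median 0.599). The lists for complexes III and V hold 5 genes each, too few to read against these shares, with 3 higher and 1 lower, and 2 higher and 1 lower, and the 1 complex II assembly factor found was not called. NDUFAF5, a complex I assembly factor, was at 1.14 to 2.60 FPKM in Control and at 18.7 and 14.9 FPKM in NoBAL (2.60 ± 0.29 SE, adjusted p = 0.000299). BCS1L, which inserts the Rieske protein into complex III, was at 5.93 to 6.34 FPKM and 44.2 and 30.2 FPKM (2.39 ± 0.35 SE, adjusted p = 0.00104). COA4, a complex IV assembly factor, was at 7.02 to 8.80 FPKM and 35.97 and 30.03 FPKM (1.97 ± 0.18 SE, adjusted p = 0.000129). Both NoBAL libraries were several-fold above Control for each of these genes. In hiHepD8 against NoBAL, 8 of 16 and 8 of 19 genes of the complex I and IV lists, NDUFAB1 included, were called lower and 0 higher, against 24.8% of all genes lower.

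Genes that maintain and express mitochondrial DNA rose in NoBAL in 17 of 24 cases, with 1 lower (median 0.91), although the mitochondrial transcripts themselves were not called. SSBP1, which coats single-stranded mitochondrial DNA, was at 5.29 to 6.03 FPKM in Control and at 28.4 and 24.3 FPKM in NoBAL (2.04 ± 0.14 SE, adjusted p = 3.95e-05). The exception was HSD17B10, a subunit of the enzyme that trims mitochondrial tRNA ends and also an enzyme of isoleucine breakdown, at 2014 to 2106 FPKM in Control and 281 and 317 FPKM in NoBAL (-2.77 ± 0.29 SE, adjusted p = 0.000237). Of 18 genes of the tricarboxylic acid cycle and pyruvate dehydrogenase 8 rose and 1 fell (median 0.72), led by IDH3A, a subunit of NAD-dependent isocitrate dehydrogenase, at 8.91 to 9.72 FPKM in Control and 40.4 and 53.6 FPKM in NoBAL (2.22 ± 0.18 SE, adjusted p = 7.03e-05). CYCS, cytochrome c itself, was at 17.9 to 19.997 FPKM in Control and at 128 and 86.4 FPKM in NoBAL, with 26.9 and 37.0 FPKM for EmptyBAL and 21.1 and 21.5 FPKM for hiHepD8 (2.42 ± 0.22 SE for NoBAL against Control, adjusted p = 0.000113). As for CYC1, which hands it electrons, both NoBAL libraries were the highest and the Control libraries the lowest. The ubiquinone and cytochrome c list as a whole had 2 of 15 higher and 4 lower in NoBAL, 2 higher and 9 lower in EmptyBAL, and 0 higher and 7 lower in hiHepD8, each against Control. Of all genes, 25.2%, 24.4% and 15.1% were called higher and 24.2%, 29.3% and 17.1% lower in these comparisons, so the NoBAL counts do not exceed the shares of all genes by much in either direction.

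Of 13 regulators of mitochondrial biogenesis, 2 were called higher and 3 lower in NoBAL than in Control, shares no larger than those of all genes. PPARA, a nuclear receptor that drives fat oxidation genes, was at 19.3 to 20.04 FPKM in Control and below 1 FPKM in all 7 other libraries (-3.46 ± 0.13 SE in NoBAL, adjusted p = 3.43e-06). PPARGC1A, the coactivator PGC-1alpha, named here after its values were seen, was at 3.47 to 4.11 FPKM in Control and at 3.56 and 3.48 FPKM in NoBAL. EmptyBAL held 0.0973 and 1.01 FPKM, hiHepD4 2.70 FPKM, and hiHepD8 12.4 and 12.97 FPKM. It was called lower in EmptyBAL (-1.71 ± 0.24 SE, adjusted p = 0.000762) and higher in hiHepD8 (1.498 ± 0.24 SE, adjusted p = 0.00262) than in Control, with NoBAL at the Control level (-0.10 ± 0.24 SE, adjusted p = 0.738). TFAM, the main packaging and transcription factor of mitochondrial DNA and part of the mitochondrial DNA list, also named after its values were seen, was at 7.97 to 8.63 FPKM in Control, 15.3 and 15.5 FPKM in NoBAL and 7.21 and 6.62 FPKM in hiHepD8 (0.82 ± 0.13 SE for NoBAL against Control, adjusted p = 0.00151). Of 5 genes linked to low oxygen, NDUFA4L2 was lower in NoBAL than in Control (-1.12 ± 0.28 SE, adjusted p = 0.0127) and HIGD1A higher (0.98 ± 0.25 SE, adjusted p = 0.0139).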

How the data were processed

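RNA-seq of 10 pig liver libraries in 5 groups was used as the authors deposited it, in 1 table of FPKM for 31905 genes. Trizol RNA from the livers was made into TruSeq libraries and read from both ends, per the labels' protocols. The tools HISAT2, HTSeq and Cufflinks, and the builds mm10 and Sscrofa11.1, are named without roles per the submitters' processing notes. FPKM share a library's total, so a rise of abundant genes lowers all others. The depth of the libraries is unknown.

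Values were tested as log2(FPKM + 1), where the pseudocount of 1 understates changes of low genes, in 1 limma model (version 3.58.1, R 4.3.3, eBayes with trend) of 5 group means over all 10 libraries (5 residual and 2.7 prior degrees of freedom), two-sided, with Benjamini-Hochberg adjustment over the 12180 genes that reached 1 FPKM in 2 or more libraries. The script was tested on simulated data. hiHepD4, with 1 library, was not tested. Assembly factors and other related genes were matched by symbol, or by identifier where the table gives none. Coordinates are those of RefSeq genes on Sscrofa11.1, matched by symbol. Named were all mitochondrial genes, up to 3 called members per complex and comparison with the largest change (the higher group averaging 10 FPKM or more), nuclear members called against the majority, isoform pairs, complex II, the most and least abundant member of each complex, and up to 3 called genes per related list in NoBAL against Control. Other names were added to complete a group, and 1 member is counted but not reported by name here. The members and lists were chosen with earlier results of these data known. Alternatives were a pseudocount of 0.1, no filter, 3 scalings, only the compared groups, averaged close replicates, a replicate block and each library left out. Figures used Python 3.11.15 and matplotlib 3.10.9.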

Additional observations from a re-analysis of the deposited data

How the results depend on the processing

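Counts of called members kept within 1.5 times their value with a pseudocount of 0.1 in all 12 combinations of genome and comparison. Numbers follow as nuclear or mitochondrial calls, and the cause of a shift was not tested except where fewer samples or more genes tested enter by construction. With the Control and the hiHepD8 libraries averaged into 1 each, every count was 0, with the lowest adjusted p of a member 0.13 (NoBAL against Control), 0.0742 (EmptyBAL against Control), 0.402 (hiHepD8 against Control), 0.122 (hiHepD8 against NoBAL), 0.257 (hiHepD8 against EmptyBAL) and 0.146 (EmptyBAL against NoBAL).

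Without the filter, EmptyBAL against Control had 7 nuclear and 3 mitochondrial calls, hiHepD8 against Control 2 nuclear, hiHepD8 against EmptyBAL 0 mitochondrial and EmptyBAL against NoBAL 2 mitochondrial. At equal FPKM sums the nuclear calls were 43, 38, 8, 14 and 6 for NoBAL, EmptyBAL and hiHepD8 against Control, hiHepD8 against EmptyBAL and EmptyBAL against NoBAL, and mitochondrial calls were 3 for EmptyBAL against Control, 1 for hiHepD8 against NoBAL and 0 for hiHepD8 against EmptyBAL. The share of all genes called higher there was 30%, 47% and 30% for NoBAL, EmptyBAL and hiHepD8 against Control. At equal sums of all genes other than the 13 mitochondrial protein genes the nuclear calls in the same order were 45, 38, 8, 15 and 10, and mitochondrial calls 3 for EmptyBAL against Control and 1 for hiHepD8 against NoBAL. Other rows of the mitochondrial genome were not left out of these sums. Under this scaling 33.6%, 46.7% and 29.7% of all genes were called higher for NoBAL, EmptyBAL and hiHepD8 against Control. In the same comparisons 14.3%, 13.8% and 8.01% were called lower. For hiHepD8 against EmptyBAL 14.5% were higher and 22.9% lower, and for EmptyBAL against NoBAL 18.9% and 5.59%. At equal upper quartiles the nuclear calls were 3 for hiHepD8 against Control, 18 for hiHepD8 against NoBAL and 7 for EmptyBAL against NoBAL. In fits of only the compared groups, hiHepD8 against Control had 37 nuclear and 12 mitochondrial calls, hiHepD8 against EmptyBAL 2 and 0, and EmptyBAL against NoBAL 0 and 0. Of all genes, 33.6% were called higher and 38.1% lower in the fit of hiHepD8 and Control.

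Leaving out 1 library at a time gave 15 to 39 nuclear and 0 to 1 mitochondrial calls for NoBAL against Control, 6 to 22 and 5 to 8 for EmptyBAL against Control, 0 to 1 and 0 to 0 for hiHepD8 against Control, 9 to 41 and 0 to 5 for hiHepD8 against NoBAL, 1 to 22 and 0 to 7 for hiHepD8 against EmptyBAL, and 18 to 42 and 4 to 8 for EmptyBAL against NoBAL. The share of all genes called moved with the library left out as well. With the titles' replicate number as a block, nuclear calls fell to 8 for NoBAL against Control, 4 for EmptyBAL against Control and 0 for EmptyBAL against NoBAL, and mitochondrial calls to 1 and 0 in the last comparisons. Deviations from the group means correlated at 0.137 between the first NoBAL and EmptyBAL libraries and at -0.049 to 0.01 with Control. With so few libraries per group, these correlations cannot show whether the numbers pair the libraries. No block could be fitted for hiHepD8, where only 1 title carries a number.

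Medians changed sign as follows. The mitochondrial median of NoBAL against Control was 0.34 and 0.418 at equal sums with and without the mitochondrial genes, 0.016, 0.027 and 0.234 without Control 1, Control 3 and NoBAL 2 (-0.256 without NoBAL 1), and 0.027 with the replicate block. The nuclear median of EmptyBAL against Control was 0.734, 0.711 and 0.166 under the scalings by sum, by sum of other genes and by upper quartile, and -0.231 to 0.23 without either EmptyBAL library. That of hiHepD8 against Control was 0.466, 0.443 and 0.114 under the same scalings, and that of hiHepD8 against EmptyBAL -0.359 to 0.163 without either EmptyBAL library. Single genes below Control in EmptyBAL but called higher at equal sums and at equal sums of other genes were ATP5MK (0.728 and 0.704), COX6A2 (0.733 and 0.71), COX7A2 (0.736 and 0.711), NDUFA10 (0.583 and 0.559) and NDUFB8 (0.758 and 0.734). Summing rows of a symbol changed nothing, since no member had more than 1 row.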

Other observations

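Genes of the tricarboxylic acid cycle were lower in EmptyBAL than in NoBAL in 14 of 18 cases with 0 higher (median -1.286), against 21.4% of all genes lower and 12.6% higher, and the ubiquinone and cytochrome c genes in 9 of 15 with 0 higher (median -1.038). Against EmptyBAL, hiHepD8 had 5 of the 18 cycle genes higher and 1 lower (median 0.486), a share close to the 22.6% of all genes called higher.

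An unnamed gene, ENSSSCG00000018076, was listed at 7715, 11674 and 9599 FPKM in Control and 8257 in hiHepD4. NoBAL had 0 and 18031 FPKM, EmptyBAL 31819 and 35417, and hiHepD8 51671 and 32843. It takes part in both FPKM sums used for scaling, also that without the 13 mitochondrial protein genes. The deposited table gives it no symbol, and its identifier falls between those of the mitochondrial genes COX1 and COX2. Another unnamed gene, ENSSSCG00000018061, stood at 2069 FPKM in EmptyBAL replicate 1, the library with the low ND genes, at 257 in EmptyBAL replicate 2 and at 54.2 to 156 in the other libraries. Both were chosen after their values were seen.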
